A study of Mus musculus with 12 samples.

Results

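Olfactory receptors are the largest multigene family of G protein-coupled receptors in the mouse and detect odours in the nose. Here the chromatin at their genes was examined in blood progenitors and early T cell precursors. The genes of interest were the protein-coding olfactory receptor (Olfr) genes whose start site had a DNase peak within 1 kb, measured to the midpoint of the peak, in at least 1 of 12 peak lists. They numbered 48 of the 1135 Olfr genes on chromosomes 1 to 19 and X, or 4.23%. Over all 21755 protein-coding genes of the same annotation, 62.5% met the same rule. The genes were chosen by presence of a peak in these lists, so which of them had a peak, and where, is a description with no test. The number of Olfr promoters with a peak in each library, counted over all Olfr genes by name, was compared between groups.

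In DNase-seq, nuclei are digested with DNase I, and sites where cuts pile up are called as peaks of open chromatin. Cells came from C57BL/6J mice. LSK cells (3 libraries) are lineage-negative, SCA1+ KIT+ stem and progenitor cells, sorted fresh from marrow. DN1 cells (2 libraries, KIT++ CD44+ CD25-) were sorted after culture of LSK cells on the immobilized Notch ligand Delta1 with 4 cytokines (SCF, FLT-3 ligand, IL-6 and IL-11). DN2a (2 libraries, KIT++ CD44+ CD25+) and DN2b cells (2 libraries, KIT+ CD44lo CD25+) came from Delta1 cultures that also received IL-7, so stage and IL-7 cannot be told apart between DN1 and DN2. IgG cells (3 libraries) were LSK cells cultured on human IgG1 with no Notch ligand. By the methods, replicates of a stage came from independent LSK isolates, and each LSK replicate gave DN1, DN2a and DN2b cells. Libraries of different DN groups thus share isolates by design. Which libraries do so is not given by the labels. The tests below take the libraries as independent, so their p-values do not allow for shared isolates.

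In olfactory sensory neurons, each cell expresses 1 allele of 1 receptor gene, and the remaining receptor genes lie in compact heterochromatin. The genes sit in long clusters, most have a single coding exon with introns in the 5′ UTR, and their promoters are poor in CpG and often carry sites for the factors LHX2 and EBF. Opening of a receptor locus needs enhancers and the cofactor LDB1 in neurons. A peak at a start site shows open chromatin and says nothing of transcription.

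The sequences of the peaks that the results turn on are given first, from GRCm38.p6 (the assembly behind mm10), 5′ to 3′ on the strand of the gene, each from the highest-scoring library and without bases of annotated UTRs. Capitals mark an exact match to a RUNX motif or an EBF motif, as spelled out further below. The first peak is that of Olfr646, which had the highest single score percentile of a member (its score exceeded 99.7% of the peaks of DN1 replicate 2, ties counted in part). It lies at chr7:104104017-104104166 on the plus strand, at -782 bp from the Olfr646 start site (negative is upstream) and in an intron of Olfr643.
Olfr646: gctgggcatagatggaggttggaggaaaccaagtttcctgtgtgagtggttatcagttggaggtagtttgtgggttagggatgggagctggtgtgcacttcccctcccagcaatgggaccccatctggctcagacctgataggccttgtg
Olfr525 and Olfr464 are shown because they were the only members with a peak in all 6 Delta1-cultured libraries and in no other. Their peaks lie at chr7:140321217-140321366 on the plus strand, in an intron of Olfr525, and at chr11:87921117-87921266 on the minus strand, at -224 bp from the start of Olfr464.
Olfr525: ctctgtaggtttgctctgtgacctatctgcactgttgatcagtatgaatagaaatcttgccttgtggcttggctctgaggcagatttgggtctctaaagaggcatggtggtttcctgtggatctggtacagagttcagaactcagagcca
Olfr464: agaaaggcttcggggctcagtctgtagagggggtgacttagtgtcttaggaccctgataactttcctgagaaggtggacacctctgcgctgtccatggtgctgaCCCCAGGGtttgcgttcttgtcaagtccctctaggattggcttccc
Olfr1507 is shown for its higher ranks in DN2b than in LSK, and Olfr552 for the opposite order. The part of the Olfr1507 peak outside the UTR is chr14:52495750-52495866 on the minus strand, and the Olfr552 peak is chr7:102597517-102597666 on the plus strand, at -179 bp.
Olfr1507: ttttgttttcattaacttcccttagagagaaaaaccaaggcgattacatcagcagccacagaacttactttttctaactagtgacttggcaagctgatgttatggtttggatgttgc
Olfr552: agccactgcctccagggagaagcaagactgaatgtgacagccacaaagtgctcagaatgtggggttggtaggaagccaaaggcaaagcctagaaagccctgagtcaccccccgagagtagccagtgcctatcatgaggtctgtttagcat
Olfr312, at chr11:58829897-58830046 on the plus strand and 734 bp into its own gene, was another intronic peak with high ranks in DN2 libraries.
Olfr312: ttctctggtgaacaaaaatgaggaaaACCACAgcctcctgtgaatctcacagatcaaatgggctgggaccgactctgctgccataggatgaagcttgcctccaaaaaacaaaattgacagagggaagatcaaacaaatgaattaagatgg

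The deposited lists held from 32952 peaks (IgG replicate 2) to 111582 (DN2b replicate 2) on the chromosomes used, and the read depth behind them is unknown. A list with fewer peaks has less chance of holding any given peak, so counts are also given at equal length, from the 32952 highest-scoring peaks of each library. Of the marker lists, the early T genes went with the labels, while the LSK genes overlapped between LSK and Delta1-cultured libraries. The IgG lists were the shortest, so fewer marker peaks there cannot be told apart from list length. Of 5 early T genes (Il2ra, Cd3e, Rag1, Bcl11b, Tcf7), 1 had a promoter peak in each LSK library, 3 in each DN1 library, 5 in each DN2a and DN2b library and 0 in each IgG library. Of 5 LSK genes, 4 or 5 had one in LSK libraries, 3 or 4 in Delta1-cultured libraries and 2 or 3 in IgG libraries. Myeloid promoters (Mpo, Csf1r, Cebpe, Elane) had a peak in 1 or 2 of 4 genes in IgG libraries, in 1 in DN2b replicate 2 and in 0 elsewhere. None of 3 B cell promoters had a peak, while of 3 erythroid promoters 2 or 3 had one outside IgG and 0 in IgG, and of 3 mast cell promoters 1 in LSK, 2 in Delta1-cultured and 0 or 1 in IgG libraries. Of 4 genes of the olfactory neuron (Omp, Adcy3, Cnga2, Gnal), 1 or 2 had a peak outside IgG and 0 in IgG. Adcy3 had one in the 9 libraries outside IgG and Gnal in 2 libraries, while Omp and Cnga2 had no peak in any library.

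The number of Olfr promoters with a peak was highest in DN1 and lowest in IgG. The 3 LSK libraries had 10, 11 and 10, the DN1 libraries 27 and 21, the DN2a libraries 17 and 11, the DN2b libraries 11 and 25, and the IgG libraries 4, 1 and 3. Every IgG library lay below every other library, and the DN2b replicates spanned most of the range. The mean was 10.3 ± 0.577 for LSK and 2.67 ± 1.53 for IgG (SD, n = 3 each). It was 24 ± 4.24 for DN1, 14 ± 4.24 for DN2a and 18 ± 9.90 for DN2b (SD, n = 2 each). Groups accounted for 0.820 of the variance (eta squared, exact permutation test over 138600 divisions, p = 0.0122, adjusted over 6 tests p = 0.0183). Without DN1 replicate 1, IgG replicate 2 or IgG replicate 3 this no longer passed (exact permutation test, adjusted p from 0.0535 to 0.0635). The 6 Delta1-cultured libraries exceeded LSK and IgG together by 12.2 promoters (18.7 ± 6.86 against 6.5 ± 4.32, SD, n = 6 each, two-sided exact permutation test, p = 0.00649, adjusted p = 0.0130). LSK cells were sorted fresh and IgG cells were cultured, and DN2 cultures also had IL-7. This contrast therefore cannot tell Delta1 apart from culture, sorting or IL-7. The denominator of these counts was every Olfr gene by name.

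List length moved with these counts. DN1 replicate 1 and DN2b replicate 2, with the 2 highest counts, had the longest lists (96436 and 111582 peaks), and the IgG libraries had the shortest (32952 to 37511). At equal length the counts were 6, 4 and 4 in LSK, 4 and 5 in DN1, 6 and 3 in DN2a, 5 and 5 in DN2b, and 1, 1 and 2 in IgG. LSK overlapped all 3 Delta1-cultured groups, where as deposited it had met DN2a and DN2b at 11, and IgG stayed below them. The Delta1 difference at equal length was 1.67 promoters and no longer passed the test (4.67 ± 1.03 against 3 ± 2, SD, n = 6 each, exact permutation test, p = 0.139, adjusted p = 0.208), and eta squared was 0.752 (exact permutation test, p = 0.0419, adjusted p = 0.126). IgG alone against the rest was not tested.

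**Figure D1:**
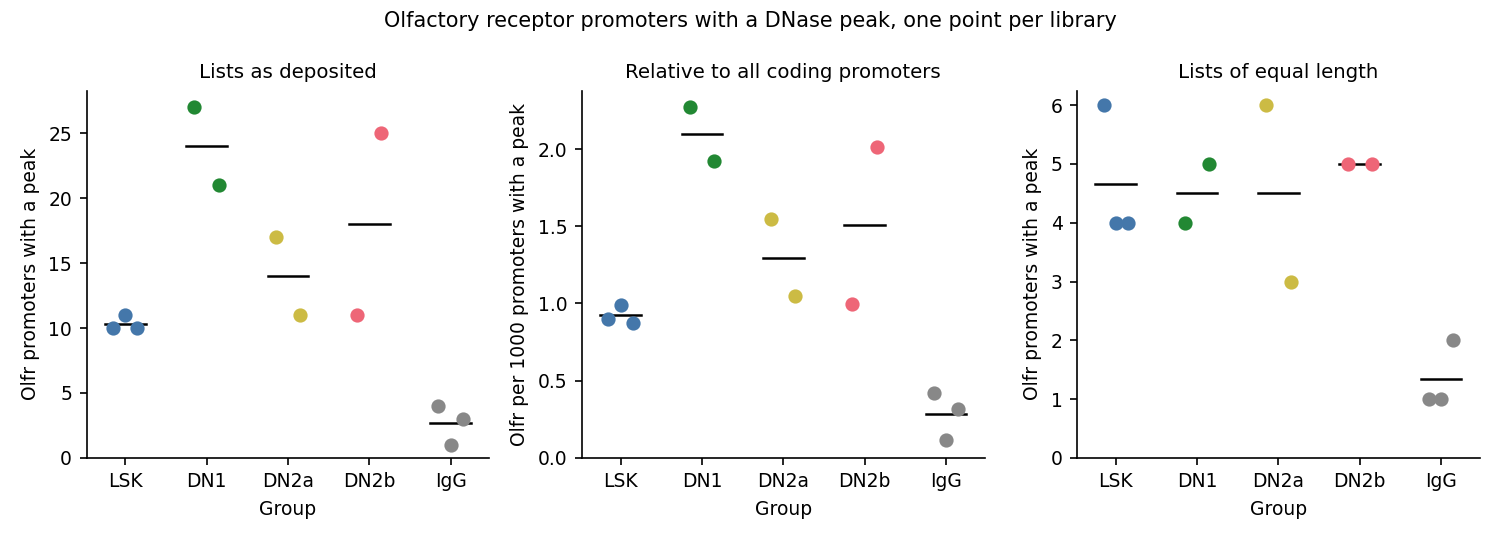
Olfr promoters with a peak in each library (points) and the group mean (line), as a count, per 1000 protein-coding promoters with a peak, and as a count at equal list length. The DN1 libraries (27 and 21) lie above the LSK libraries (10 to 11) on the left, and the groups other than IgG run together (3 to 6) on the right.

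The share of all open promoters that were Olfr promoters gave the same picture. Per 1000 protein-coding promoters with a peak, there were 0.900, 0.992 and 0.875 Olfr promoters in LSK, 2.27 and 1.92 in DN1, 1.54 and 1.05 in DN2a, 0.999 and 2.01 in DN2b, and 0.417, 0.112 and 0.319 in IgG. All 6 Delta1-cultured libraries lay above all 6 others, though by a margin of 0.999 against 0.992 at the closest. The difference was 1.03 per 1000 (exact permutation test, p = 0.00216, the smallest that 924 divisions can give, adjusted p = 0.0130), and eta squared was 0.856 (exact permutation test, p = 0.00482, adjusted p = 0.0130). At equal length the difference was 0.183 per 1000 (exact permutation test, p = 0.0714, adjusted p = 0.143). Eta squared was then 0.741 (exact permutation test, p = 0.0419, adjusted p = 0.126), and neither passed.

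Olfr peaks ranked low. The within-library percentile of a peak is the share of the library's peaks with a lower score, plus 50% of the ties, and a promoter with several peaks was given its highest. Over the 151 pairs of an Olfr promoter and a library with a peak, the median percentile was 22.9, with 80 pairs (53.0%) below 25 and 29 (19.2%) above 75. Over 129116 such pairs of other protein-coding promoters the median was 85.7, with 5.69% below 25 and 67.0% above 75. In every library the median Olfr percentile lay below that of other coding promoters, and the closest pair was in IgG replicate 2 (72.0 from 1 peak, and 77.2).
The mean percentile of Olfr peaks was 42.1, 36.6 and 43.4 in LSK, 31.6 and 33.8 in DN1, 35.9 and 35.1 in DN2a, 42.1 and 35.2 in DN2b, and 23.2, 72.0 and 39.6 in IgG, where it rested on 4, 1 and 3 peaks. Groups overlapped (eta squared 0.145, exact permutation test, p = 0.898, adjusted p = 0.898), and at equal list length eta squared was 0.549 (exact permutation test, p = 0.190, adjusted p = 0.228). A window of 2.5 kb gave an eta squared of 0.741, past the threshold (exact permutation test, adjusted p = 0.0445). The Delta1-cultured libraries differed from the rest by -7.21 points (35.6 ± 3.52 against 42.8 ± 16.04, SD, n = 6 each, exact permutation test, p = 0.379, adjusted p = 0.455). It was 0.651 points at equal length and 5.61 in the upper 50% of each list (exact permutation test, adjusted p = 0.937 and 0.439). With a window of 2.5 kb the difference had the opposite sign, 7.19 points (exact permutation test, adjusted p = 0.0390), and without IgG replicate 1 it was -11.1 points (exact permutation test, adjusted p = 0.0292).

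**Figure D2:**
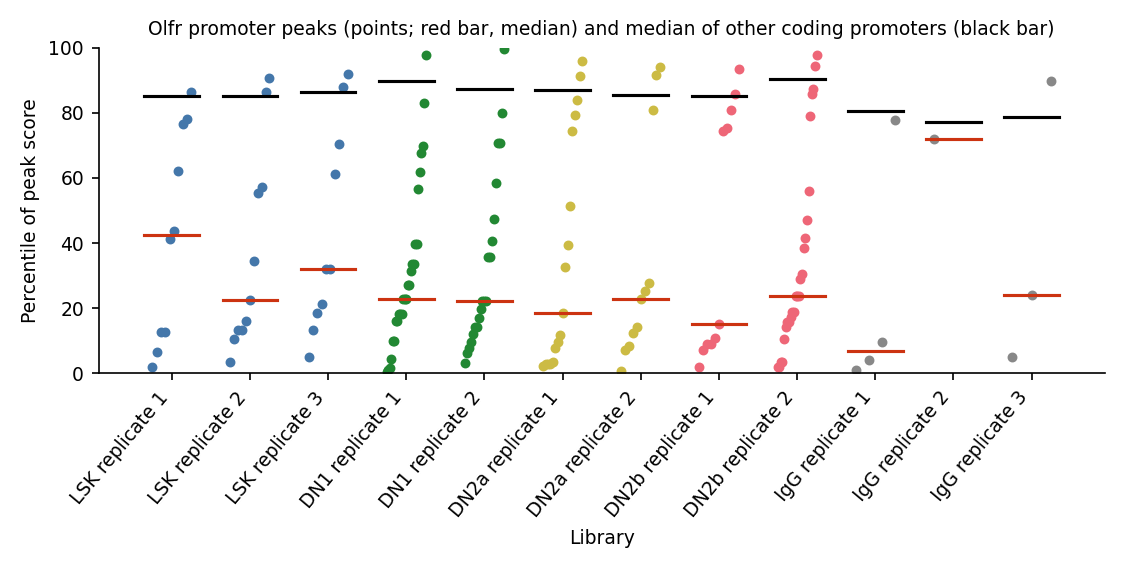
Percentile of the peak score at each Olfr promoter with a peak (points) in each library, with the median of those points (red bar) and the median of other protein-coding promoters (black bar). Most points lie low, and the black bars stand between 77.2 and 90.4.

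A peak near an Olfr start site was about as frequent as a peak near any other place in the same neighbourhood. The window was moved in 18 steps up to 50 kb to either side of each start site, a comparison chosen after seeing the data and given as a description. Of the 1135 Olfr genes, 48 (4.23%) had a peak at the start site, and from 29 (2.56%) to 60 (5.29%) had one in the moved windows, with a median of 46. In 7 of the 18 moved windows the count was at or above 48. Among other protein-coding genes the start site stood out, with 65.8% against 16.5% to 30.1% in moved windows and 0 of 18 at or above.

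**Figure D3:**
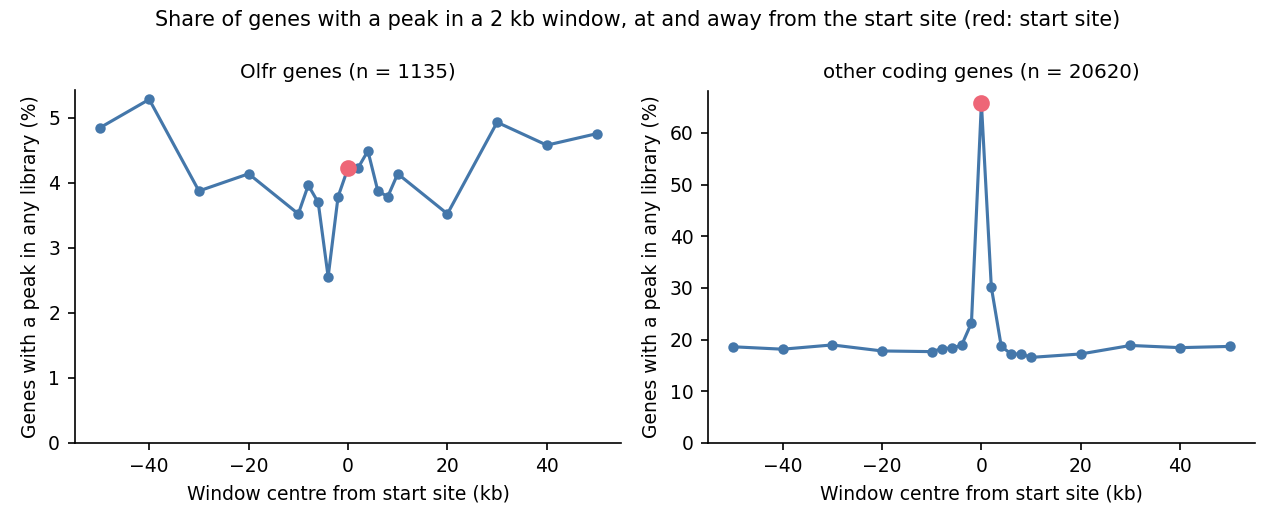
Share of genes with a peak in any library in a 2 kb window centred at distances of up to 50 kb from the start site, for Olfr genes (left) and other protein-coding genes (right). The red point is the start site, at 4.23% on the left and 65.8% on the right, and the vertical axes differ.

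Members were mostly seen in few libraries. Of the 48, 23 (47.9%) had a peak in exactly 1 library, against 6.44% of all coding promoters with any peak. At the other end, 12 (25%) had a peak in at least 6 libraries, against 80.7%, and 1, Olfr433, had one in all 12, against 58%. A peak in at least 1 IgG library was seen at 5 members (background 75.6%) and in at least 1 LSK library at 13 (background 88.5%). A peak in Delta1-cultured libraries and in no other was seen at 32 (66.7%, background 9.33%), of which Olfr525 and Olfr464 had it in all 6 (background 0.537%). The 32 include members seen in 1 library, with 6 in DN2b replicate 2 and 5 in DN1 replicate 1. Those are the longest lists and both Delta1-cultured, so list length and Delta1 culture cannot be told apart in this pattern. The background promoters also ranked higher (median percentile 85.7 for other coding promoters against 22.9). In all 3 LSK libraries and no IgG library there were 7 (background 6.45%), and in both DN1 libraries and no other there were 3, Olfr417, Olfr110 and Olfr516 (background 0.191%). At equal length 12 members had any peak, 5 of them in Delta1-cultured libraries only. The share of all coding promoters with that pattern was not counted at equal length, so these 5 are not set against a background. Members by number of libraries were 23 with 1, 7 with 2, 2 each with 3, 4 and 5, 3 with 6, 5 with 7, 2 with 8, 1 with 9 and 1 with 12.

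**Figure D4:**
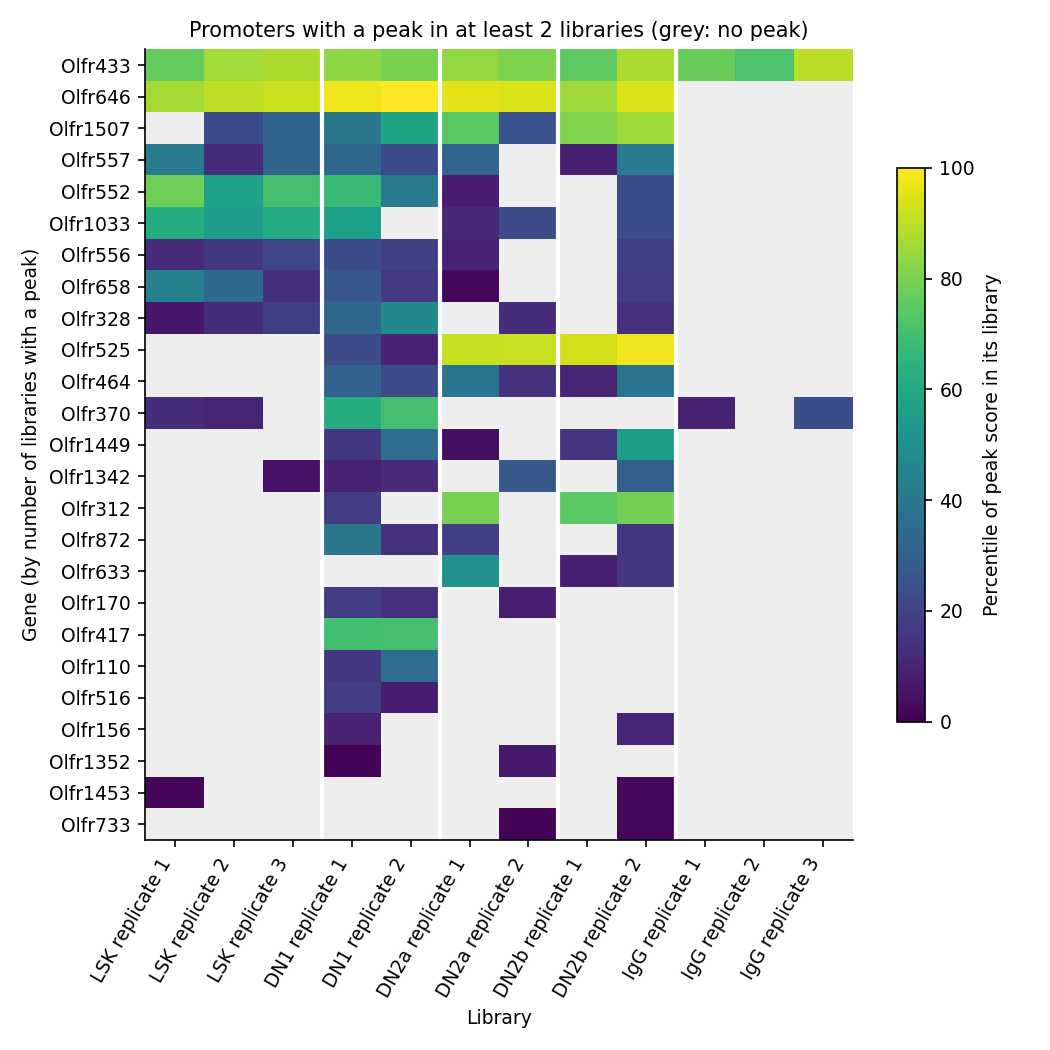
Percentile of the peak score in each library for the 25 members with a peak in at least 2 libraries, ordered by the number of libraries, with grey for no peak. Olfr433 fills the row across all 12 libraries, Olfr646 the 9 libraries outside IgG, and Olfr525 is high (91.2 to 97.7) in the DN2a and DN2b columns.

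Olfr433 (ENSMUSG00000045381.6, chromosome 1 from 174040705 to 174044411, plus strand) had a peak in every library, 266 bp downstream of its start site and within its annotated UTR, so that its sequence is not printed. The percentiles were 76.4, 86.3 and 87.8 in LSK, 83.1 and 79.99 in DN1, 83.8 and 80.7 in DN2a, 75.2 and 87.4 in DN2b, and 77.7, 72.0 and 89.7 in IgG. As deposited all groups overlapped. With the lists cut to equal length they were 61.5, 77.3 and 77.0 in LSK, 50.4 and 57.9 in DN1, 66.4 and 66.3 in DN2a, 53.7 and 57.5 in DN2b, and 74.6, 72.0 and 88.3 in IgG, so that every IgG library lay above every Delta1-cultured library and LSK overlapped both. Among the 7885 protein-coding promoters with a peak in all 12 libraries, 1220 (15.5%) differed between groups by eta squared (exact permutation test, adjusted p below 0.05). That number was 336 at equal length and 0 to 803 with 1 library left out, 0 without any one of the 6 Delta1-cultured libraries, where 2583 to 3043 had an unadjusted p below 0.05 in the exact permutation test. Olfr433 was not called as deposited (eta squared 0.0628, exact permutation test, p = 0.965, adjusted p = 0.968). At equal length its eta squared was 0.748, which did not pass the adjustment (exact permutation test, p = 0.0284, adjusted p = 0.132). The nearest protein-coding gene outside the family, the interferon-inducible Ifi205, starts 9.16 kb away (for single members, distances to neighbours are from the highest peak) and had no peak in any library.

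Olfr646 (ENSMUSG00000073931.3, chromosome 7 from 104104873 to 104109766, plus strand) ranked above the other members in all LSK, DN1 and DN2a libraries, and below Olfr525 in both DN2b libraries. The percentiles were 86.4, 90.6 and 92.1 in LSK, 97.9 and 99.7 in DN1, 96.0 and 94.2 in DN2a, and 85.9 and 94.3 in DN2b, with no peak in any IgG library. Both DN1 libraries and both DN2a libraries lay above all LSK libraries, and DN2b overlapped LSK. The peak was still present in the same 9 libraries at equal length. With a window of 500 bp it lay outside, and 4 libraries had a second, lower-scoring peak nearer the start site. The nearest other coding gene, Ubqln5, starts 25.7 kb away and had no peak in any library.

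Olfr525 (ENSMUSG00000061489.3, chromosome 7 from 140320858 to 140327625, plus strand) stood at percentiles 22.7 and 9.72 in DN1, 91.2 and 91.5 in DN2a, and 93.5 and 97.7 in DN2b, with no peak in LSK or IgG. The DN2 libraries and the DN1 libraries did not overlap. At equal length the 4 DN2 libraries kept the peak and the DN1 libraries did not. The nearest other coding gene, 5830411N06Rik, starts 74.0 kb away and had no peak in any library.

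Olfr464 (ENSMUSG00000060787.9, chromosome 11 from 87913268 to 87920967, minus strand) had the same presence but low ranks, with 31.5 and 22.4 in DN1, 39.3 and 14.2 in DN2a, and 10.8 and 38.4 in DN2b. The 3 groups overlapped, and at equal length no library had the peak. Its nearest coding neighbour is Epx, the eosinophil peroxidase gene, at 45.7 kb and without a peak.

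Olfr1507 (ENSMUSG00000059887.7, chromosome 14 from 52488791 to 52495749, minus strand), also called MOR28 and much used in studies of receptor choice, had a peak centred at -42 bp from its start site. It was missing in LSK replicate 1 and stood at 22.4 and 32.1 in the other LSK libraries, 39.8 and 58.6 in DN1, 74.5 and 25.3 in DN2a, and 81.0 and 85.9 in DN2b, with no peak in IgG. Both DN2b libraries lay above all LSK and DN1 libraries, while the DN2a replicates spanned from the LSK range to near DN2b. At equal length 4 libraries kept the peak (DN1 replicate 2, DN2a replicate 1 and both DN2b). The peak has 1 further genomic match of at least 90% identity over 100 bp or more (90.7% over 150 bp), and which copy its reads came from was not tested.

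Olfr1507 lies inside the T cell receptor alpha and delta locus. From its start site, the V segment Trav1 starts 67.8 kb to one side and Trav2 71.4 kb to the other, and of the 3 Olfr genes between them Olfr1507 alone had a peak. Trav1 had a start-site peak in the 6 Delta1-cultured libraries alone, at percentiles 64.4 and 65.9 in DN1, 78.6 and 65.3 in DN2a, and 88.4 and 91.4 in DN2b. Trav2 had one in both DN2b libraries, at 17.8 and 35.3. Of 115 V segments of the locus, 5 to 10 had a start-site peak in LSK libraries, 23 and 10 in DN1, 22 and 16 in DN2a, 22 and 41 in DN2b, and 0 to 2 in IgG. These values are from the lists as deposited, which differ in length. The V segments were not counted or ranked at equal length, so no order of stages is read. V segments are joined to D and J segments as T cells develop. Whether open chromatin at V segments has a part in that at Olfr1507 was not tested.

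The largest group of members came from the array around the beta-globin genes on chromosome 7. This cluster, from 102481679 to 105368230, holds 129 Olfr genes, of which 9 (6.98%) were members, against 4.23% of all Olfr genes. Some smaller clusters had higher shares, such as 3 of 13 genes (23.1%) in that of Olfr433 and 3 of 19 (15.8%) in that of Olfr525. Others had lower ones, such as 1 of 60 (1.67%) in that of Olfr792, so the share does not set the array apart. Clusters were taken as Olfr genes less than 500 kb apart, a definition chosen after seeing the data, and 27 of 55 clusters held a member. The cluster with the most genes, 227 on chromosome 2, held 2 members (0.881%), Olfr1033 and Olfr48.
Of 27 other protein-coding genes in the chromosome 7 array, 11 had a start-site peak, against 62.5% of all protein-coding genes. All 11 were Trim genes, which encode tripartite-motif proteins, many of them ubiquitin ligases of antiviral defence. The 5 globin genes (Hbb-bt, Hbb-bs, Hbb-bh2, Hbb-bh1 and Hbb-y) had none in any library.

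Olfr552 (ENSMUSG00000073973.4, chromosome 7 from 102597770 to 102608125, plus strand) stood at 78.1, 57.2 and 70.6 in LSK, 67.7 and 40.7 in DN1, 7.76 in DN2a replicate 1 and 23.9 in DN2b replicate 2, with no peak in the other 5 libraries. All LSK values lay above both DN2 values, and DN1 overlapped LSK. At equal length the 3 LSK libraries and DN1 replicate 1 kept the peak. Its neighbour Trim21, which starts 32.1 kb away and encodes an antibody-binding ubiquitin ligase, had a peak in all 12 libraries, at 80.7 to 90.4 outside IgG and 56.4 to 75.2 in IgG.

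Olfr557 (ENSMUSG00000073967.3, chromosome 7 from 102695910 to 102700707, plus strand), with its peak 8.26 kb from the start of Trim68, stood at 41.2, 13.3 and 32.1 in LSK, 33.6 and 22.4 in DN1, 32.6 in DN2a replicate 1, and 8.85 and 41.4 in DN2b. Its groups overlapped. Trim68 had a peak in all 12 libraries, so the pair differed in DN2a replicate 2 and in IgG. At equal length Olfr557 had a peak in LSK replicate 1 alone (3.83).
Olfr556 (ENSMUSG00000073969.3, chromosome 7 from 102664899 to 102673270, plus strand) stood at 12.6, 16.2 and 21.3 in LSK, 22.7 and 19.6 in DN1, 9.65 in DN2a replicate 1 and 18.95 in DN2b replicate 2. No value passed 25, and no peak remained at equal length or in a window of 500 bp.
Olfr658 (ENSMUSG00000070421.4, chromosome 7 from 104642877 to 104647305, minus strand) stood at 43.7, 34.5 and 13.3 in LSK, 27.2 and 16.9 in DN1, 2.19 in DN2a replicate 1 and 17.3 in DN2b replicate 2. LSK overlapped DN1, and at equal length LSK replicate 1 alone had the peak.
The array also held Olfr633 (51.3 in DN2a replicate 1, 8.85 and 15.8 in DN2b), and Olfr593, Olfr615 and Olfr635, each with a peak in 1 library at percentiles of 4.16, 4.43 and 5.01. Those of Olfr593 and Olfr635 were IgG libraries.

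Olfr1033 (ENSMUSG00000045392.8, chromosome 2 from 86020633 to 86045171, plus strand) stood at 62.0, 55.4 and 61.3 in LSK, 56.6 in DN1 replicate 1, 11.7 and 22.9 in DN2a, and 23.9 in DN2b replicate 2. The LSK values lay above all DN2 values. At equal length the 3 LSK libraries alone had the peak. This peak has 61 further genomic matches of at least 90% identity over 100 bp, and 79.3% of its bases are masked as repeat. Which copy its reads came from was not tested.
Olfr328 (ENSMUSG00000057654.6, chromosome 11 from 58550854 to 58555636, minus strand) stood at 6.47, 13.3 and 18.6 in LSK, 33.6 and 47.4 in DN1, 12.5 in DN2a replicate 2 and 14.3 in DN2b replicate 2. The DN1 values were the highest, and no library kept the peak at equal length.
Olfr370 (ENSMUSG00000047286.7, chromosome 8 from 83535780 to 83545227, plus strand), the sole Olfr gene of its cluster, stood at 62.0 and 70.6 in DN1, with 12.6 and 10.5 in 2 LSK libraries and 9.68 and 24.0 in 2 IgG libraries. It had no peak in DN2a or DN2b, so that as deposited DN1 stood apart from every other group. At equal length DN1 replicate 2 (38.1) and IgG replicate 3 (13.5) alone had the peak. Its peak lies in its UTR, 30.7 kb from Ndufb7, a subunit gene of mitochondrial complex I with a peak in all 12 libraries.

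**Figure D5:**
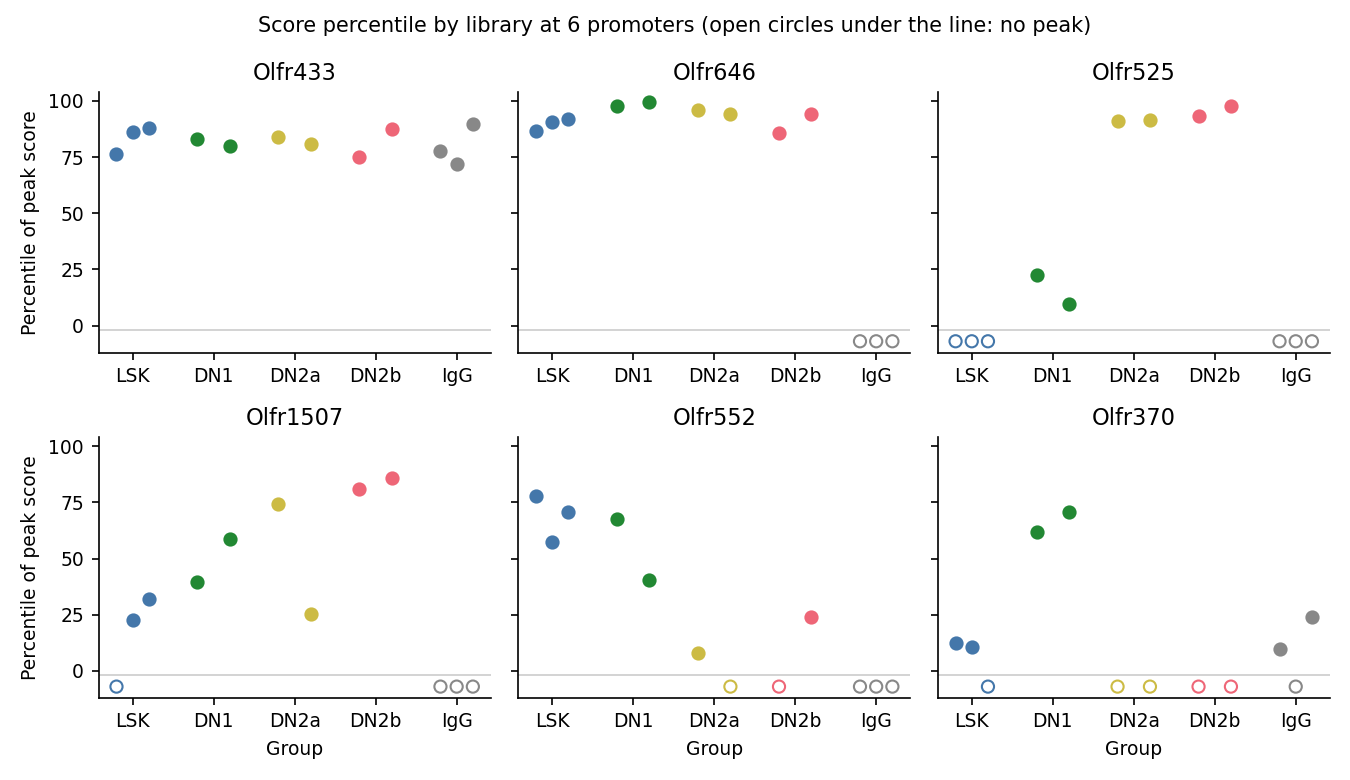
Percentile of the peak score by group at 6 members, 1 filled point per library with a peak and open circles under the line for libraries without. Olfr433 lies between 72.0 and 89.7 in all 12 lists as deposited, Olfr525 is low in DN1 (9.72 and 22.7) and high in DN2, and Olfr370 is highest in DN1 (62.0 and 70.6).

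A further 9 members, each with a peak in under 6 libraries, had one in every library of 1 group and in none of another (18.8% of members, against 7.09% of coding genes with a promoter peak). Olfr312 (chromosome 11 from 58829237 to 58834780, plus strand) stood at 18.3 in DN1 replicate 1, 79.3 in DN2a replicate 1, and 74.4 and 79.0 in DN2b. The DN2 values lay above the DN1 value. DN1 and DN2a had a single value each, so no group order is read from them. At equal length the 3 DN2 libraries kept the Olfr312 peak. Its neighbour Gm12258, at 17.2 kb, had a peak in all 12 libraries.
Olfr417 (chromosome 1 from 174365122 to 174374472, plus strand), in the same cluster as Olfr433, stood at 69.7 and 70.6 in DN1 and was found nowhere else, also at equal length. Olfr110 (16.1 and 35.7) and Olfr516 (18.3 and 7.76) had the same presence at lower ranks and were lost at equal length. The Olfr516 peak has 634 further matches in the genome, and that of Olfr110 has 1.
Olfr1449 stood at 16.1 and 35.7 in DN1, 3.62 in DN2a replicate 1, and 15.3 and 55.9 in DN2b. Olfr1342 stood at 4.88 in LSK replicate 3, 10.04 and 11.9 in DN1, 27.8 in DN2a replicate 2 and 30.6 in DN2b replicate 2. Olfr872 stood at 39.8 and 14.3 in DN1, 18.4 in DN2a replicate 1 and 15.8 in DN2b replicate 2. Each of these 3 had at least 1 group with a single value, and no group order is read from them.
Olfr170 stood at 18.3 and 14.3 in DN1 and at 8.47 in DN2a replicate 2, and Olfr633 is given above. The Olfr170 peak has 1 further genomic match (96.7% identity over 150 bp), and which copy its reads came from was not tested.

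The other 27 members ranked low and rested on few libraries. The 5 highest were Olfr524 (47.1), Olfr15 (28.9) and Olfr530 (23.9), each in DN2b replicate 2 alone, and Olfr432 (27.2) and Olfr1392 (22.7), each in DN1 replicate 1 alone. The Olfr1392 peak has 1 further genomic match (94.7% identity over 150 bp). The remaining 22 had highest percentiles from 0.541 to 22.4. Of these, 4 had a peak in 2 libraries (Olfr156, Olfr1352, Olfr1453 and Olfr733), and 18 in 1 (Olfr1414, Olfr1499, Olfr16, Olfr3, Olfr635, Olfr615, Olfr593, Olfr139, Olfr399, Olfr1384, Olfr215, Olfr1336, Olfr48, Olfr736, Olfr1314, Olfr741, Olfr376 and Olfr792). Olfr16 encodes MOR23, a receptor also known from sperm. Olfr139 and Olfr399 overlap and share 1 peak, so the 48 members rest on 47 distinct highest peaks. The longest lists held the most members seen once, with 6 in DN2b replicate 2 and 5 in DN1 replicate 1, against 0 in LSK replicates 1 and 3, DN2a replicate 2 and IgG replicate 2.
The peaks closest to the limit of the window were those of Olfr635 (879 bp), Olfr516 (-862 bp) and Olfr530 (-820 bp) among members, and of Olfr202 (-1018 bp), Olfr536 (-1075 bp) and Olfr922 (1077 bp) among genes left out.

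Nearest genes outside the family were closer to members than to the rest. From start site to start site, the median distance to the nearest other coding gene was 55.9 kb for the 48 members and 145 kb for the 1087 Olfr genes without a peak, and 45.8% and 19.8% had one within 50 kb. None of the members had one within 1 kb. Of the nearest neighbours of members, 18 of 48 (37.5%) had a peak in some library and 14 (29.2%) in all 12. For Olfr genes without a peak these shares were 30.9% and 14.8%. In 55 of the 151 pairs of a member and a library with a peak, the neighbour had a peak too. Genes of 1 cluster share neighbours. With each neighbour counted once, the order of the first shares turned, to 17 of 41 (41.5%) for members and 68 of 144 (47.2%) for the rest, while those in all 12 were 31.7% and 22.9%, so these shares are descriptions.
By annotation the highest peak lay between genes at 19 members, in an intron at 16, in a UTR at 11 and in a coding exon at 2 (Olfr1453 and Olfr593).

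Sequence around the start site did not set members apart from the rest of the family in CpG. The observed over expected CpG ratio in 2 kb had a median of 0.104 in members (0.0306 to 0.325), 0.109 in Olfr genes without a peak, 0.606 in other coding genes with a peak and 0.213 in those without. The GC content was 40.7% in members against 36.3% in the other Olfr genes. Motifs were searched as exact letters on both strands, in the 47 peaks of 150 bp and in 170207 peaks, 1 from each region formed by merging all lists. RUNX, a family of blood cell regulators (letters TGTGGT), matched in 25.5% of member peaks and 23.1% of all. TCF (letters CTTTGA), the motif of TCF1, which acts early in T cells, matched in 23.4% and 11.2%, or 11 of 47 member peaks. GATA (letters AGATAA) matched in 8.51% and 8.29%, and the E-box (letters CAGCTG) in 14.9% and 11.5%. No member peak held the ETS letters CCGGAA, which 4.72% of all peaks held, or the GC box letters GGGCGG, which 10.6% held. Member peaks were not matched to all peaks in base composition. In 300 bp around the start site, members and Olfr genes without a peak had RUNX letters in 27.1% and 18.95%, the E-box in 16.7% and 7.73%, TCF in 22.9% and 24.8%, and GATA in 18.8% and 24.2%. Other coding genes had RUNX letters in 14.5%, the E-box in 17.9%, TCF in 12.6% and GATA in 7.37%. For TCF, members were thus near the rest of the family.
The letters TAATTA of LHX2 were in 6.38% of member peaks against 2.08% of all, and those of EBF (CCCNNGGG) in 4.26% against 4.82%. In 300 bp around the start site, LHX2 letters were in 20.8% of members, 19.6% of Olfr genes without a peak and 2.97% of other coding genes. EBF letters were in 12.5%, 14.4% and 16.9%, in the same order. A match describes the letters and not a bound site, and motifs can overlap one another.

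Other chemosensory receptor families differed in how many of their promoters had a peak, against 4.23% of Olfr genes. A peak was found in at least 1 library at 3 of 209 Vmn1r and 2 of 122 Vmn2r genes (vomeronasal receptors), 2 of 15 Taar genes (trace amine receptors), 1 of 3 Tas1r and 1 of 35 Tas2r genes (taste receptors) and 0 of 7 Fpr genes. The Tas1r gene, Tas1r1, and 1 of the Vmn1r genes had a peak in all 12 libraries. Ms4a genes, several of which encode surface proteins of blood cells, had 6 of 19.

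Of 15 genes for odorant signal transduction and receptor trafficking, 5 had a peak in some library, against 62.5% of all protein-coding genes. Ric8b, a chaperone of the olfactory G protein, had one in all 12, at 95.5 to 98.5 outside IgG and 56.9 to 82.5 in IgG. Adcy3, the adenylyl cyclase of the olfactory cilium that many other cells also use, had one in the 9 libraries outside IgG. It stood at 21.2, 31.6 and 29.5 in LSK, 53.7 and 63.2 in DN1, 81.3 and 71.1 in DN2a, and 84.1 and 92.7 in DN2b. As deposited, the LSK, DN1, DN2a and DN2b values did not overlap. The lists differ in length and Adcy3 was not ranked at equal length, so no order of stages is read. Cngb1 stood low in 8 libraries (1.48 to 8.47), and Reep1 and Gnal, the olfactory G protein, had peaks in 3 and 2 libraries. The other 10, among them Omp, Cnga2, Ano2 and Rtp1, had none.
Of 12 genes that act on receptor choice in neurons, 10 had a peak, against 62.5% of all protein-coding genes. A peak in all 12 libraries was seen at 7885 of the 21755 protein-coding genes, and in this list at Atf5, Kdm1a, Bptf, Cbx5 and Lbr. Those genes act in many cell types. Lhx2 and Ebf4 had no peak in any library. Ldb1, the LHX2 cofactor, had one in 9 libraries, and Ebf1, the B cell and olfactory factor, in 10, at 29.5 to 65.9.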

How the data were processed

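DNase-seq peak lists of 12 libraries were used, 1 per library with replicates not pooled. The authors mapped the trimmed read pairs to mm10 (BWA 0.7.12, listed with SAMtools 1.2 in the submitters' processing notes). Their peaks are those of hotspot2 at FDR 0.05. Each deposited list gives 150 bp peaks with a whole-number score, which has no stated meaning in the sources used here and was used only for ranks within a list. Read depth is unknown, and list length is given in its place. The methods give BWA's alignment and pairing settings. Whether reads with several matches were kept is not said there, and the names of the deposited lists hold the word uniques.

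Start sites were the 5′ ends of protein-coding gene records of GENCODE M21. Genomic bases came from GRCm38.p6 (RefSeq). Copies were sought with BLASTN 2.17.0, and tables were made with Python 3.11.15, numpy 2.4.6 and pandas 2.3.3. Chromosome Y and unplaced sequence were left out, and coordinates are 1-based. Groups came from the labels, and replicate numbers are names in order of deposition that pair nothing. Libraries were compared by exact permutation of group labels, with eta squared or a two-sided difference of means and Benjamini-Hochberg adjustment over 6 tests. At promoters open in all 12 libraries the adjustment was over all 7885. The permutation procedure was tested on simulated data.

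Members named with values were those with a peak in at least 6 libraries, those with a peak in every library of 1 group and none of another, and the 5 highest of the rest. The members and lists were chosen with earlier results of these data known. Alternatives were equal list lengths, the upper 50% of each list by score, windows of 500 bp and 2.5 kb, every protein-coding transcript start, peaks nearer to another gene left out, any base of the peak within the window, near-identical copies left out and each library left out in turn.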

Additional observations from a re-analysis of the deposited data

How the results depend on the processing

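Counts of Olfr promoters depended on list length. At equal lengths eta squared of the count was 0.752, the Delta1 difference 1.67, eta squared of the share per 1000 was 0.741 and its Delta1 difference 0.183, none past an adjusted p of 0.05 in the exact permutation test. Under the other 7 settings these 4 values stayed past the threshold. Leaving out 1 library moved eta squared of the count between 0.778 and 0.946, and without DN1 replicate 1, IgG replicate 2 or IgG replicate 3 it no longer passed (adjusted p from 0.0535 to 0.0635, exact permutation test). The Delta1 differences of the count and the share passed in all 12 such fits (10.5 to 13.7 promoters and 0.903 to 1.16 per 1000). For the mean percentile, a window of 2.5 kb gave an eta squared of 0.741 and a Delta1 difference of 7.19 points in place of -7.21, both past the threshold (exact permutation test, adjusted p = 0.0445 and 0.0390). With 1 library left out that difference ran from -11.1 to -1.38 and passed without IgG replicate 1 (exact permutation test, adjusted p = 0.0292). The cause was not tested.

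Members numbered 12 at equal lengths, 11 in the upper 50% of each list, 109 with a window of 2.5 kb and 85 with every coding start site. In the same order, those in exactly 1 library numbered 3, 2, 43 and 35, and those in Delta1-cultured libraries only 5, 7, 63 and 54. The shares of all coding promoters with these patterns were not counted under the alternatives, so these counts have no background. With 1 library left out there were 42 to 48 members. Promoters open in all 12 libraries whose percentile differed between groups numbered 336 at equal lengths, 212 in the upper 50% and 0 to 803 with 1 library left out (0 without any one of the DN1, DN2a or DN2b libraries), against 1220. Olfr433 was called in none of these (exact permutation test, adjusted p from 0.132 to 0.994), and its eta squared was 0.748 at equal lengths against 0.0628. The depth behind a missing peak is unknown, so a missing peak in a short list does not show closed chromatin. No paired analysis was possible because the labels carry no replicate numbers.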

Other observations

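Olfr pseudogenes, which the comparisons above leave out, were looked at after seeing the data. Of 272, 9 (3.31%) had a start-site peak in at least 1 library. In windows moved in the same 18 steps, 7 to 13 had one, and in 9 of the 18 the count was at or above 9. Olfr647-ps1, in the chromosome 7 array, had the highest percentile, 87.6, with a peak in 6 libraries (all LSK and DN1 libraries and IgG replicate 3). Olfr753-ps1 had a peak in the 4 DN2 libraries alone, at up to 71.6.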
